A study of Rattus norvegicus with 24 samples.

Results

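The postnatal oxycodone lineage was compared with its saline control in the nucleus accumbens (NAc) of rat pups, with both generations pooled. Of 24 RNA-Seq libraries in the series, 16 entered this comparison: 8 from postnatal oxy (PNO) pups and 8 from saline (SAL) pups, each group holding 4 F1 and 4 F2 libraries. All pups were Sprague Dawley rats at postnatal day 14. In the PNO lineage, F0 dams received oxycodone (oxy) by oral gavage from the birth of their litters until weaning. By the end, the amount given to the dams each day stood at 15 mg/kg. The F1 pups were not dosed themselves and met the drug through the milk, and F2 pups were born to F1 PNO females mated with males that had no part in the experiment. F1 SAL pups came from dams given saline, and F2 SAL pups were born to F1 females of the saline condition, which were not treated themselves. The libraries came from separate litters, and pups of either sex were taken at random. The generation was a term in the model, so that each fold change below is the PNO effect averaged over F1 and F2. The effect need not be equal in the 2 generations.

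Oxycodone is an opioid that acts mainly on the mu opioid receptor, passes into milk and reaches the nursing pup. The NAc is the ventral part of the striatum and serves reward and motivated behaviour. Most of its neurons are GABAergic projection neurons that carry D1 or D2 dopamine receptors, and they mature over the weeks after birth in the rat. A smaller group of interneurons releases GABA with nitric oxide or peptides, or acetylcholine.

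Levels are given as FPKM, fragments per kilobase of transcript scaled to the number of mapped fragments, as the authors deposited them for each gene. A gene was tested if it reached an FPKM of 1 in 8 or more of the 16 libraries, which kept 13607 of 23950 genes. Fold changes are on the log2(FPKM + 0.1) scale, PNO minus SAL, which understates the change of low genes. A gene was called if its adjusted p from limma was under 0.05. The sum of FPKM ran from 591060 to 766781 across the 16 libraries, and between 4782 and 5935 genes were listed at 0 in a library. The number of reads behind each value is unknown. F2 PNO replicate 1 stood apart: it had the highest sum, and its median correlation with the other libraries was 0.909, where the lowest median among the other 15 was 0.944.

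The tissue label was held against defining striatal genes. Ppp1r1b, which encodes the dopamine signalling protein DARPP-32, lay between 206.69 and 549.36 FPKM in the 16 libraries. Penk, the enkephalin precursor, lay between 116.4 and 321.8 FPKM, and Drd1 between 8.64 and 27.18 FPKM. These defining genes were present in every library. Slc17a7, a vesicular glutamate transporter of cortical neurons that striatal neurons lack, ranged from 3.94 to 270.8 FPKM over the same libraries.

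Across 13607 genes, 245 differed between PNO and SAL, which is 1.80% of the genes tested. Higher levels in PNO were found for 150 genes (1.10%) and lower levels for 95 (0.698%). The excess of higher genes was not stable: the split was 962 higher and 1220 lower with library weights, 521 and 746 with the cortex list in the model, and 247 and 413 without F1 PNO replicate 3. The changes were small: the median size was 0.44 on the log2 scale, from 0.22 to 2.19, and the 10 genes that changed by 1 or more were all lower in PNO. Over all genes the median fold change was -0.07, and -0.021 both after upper-quartile rescaling and without F2 PNO replicate 1. Mitochondrially encoded transcripts take up a large part of the FPKM sum. They made up 30.9, 32.5 and 36.6% of it in SAL and 24.1, 37.0 and 41.8% in PNO (lowest, median, highest). PNO values reached both above and below the SAL range, with 4 PNO libraries above it. Of the 13 mitochondrially encoded genes, 12 had positive fold changes (median 0.17) and none was called. Without adjustment, p was under 0.05 for 1375 genes higher in PNO (10.1%) and 1780 lower (13.1%). The 8 PNO libraries lay above all 8 SAL libraries for 20 genes (0.147%) and below them for 12 (0.0882%), of which 16 and 7 were among the 245. No gene was called for a difference of the PNO effect between F1 and F2, for which limma's smallest adjusted p was 0.792 and 496 genes had an unadjusted p under 0.05. With 4 libraries per group and generation, the lack of calls does not show that the effects were equal.

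**Figure D1:**
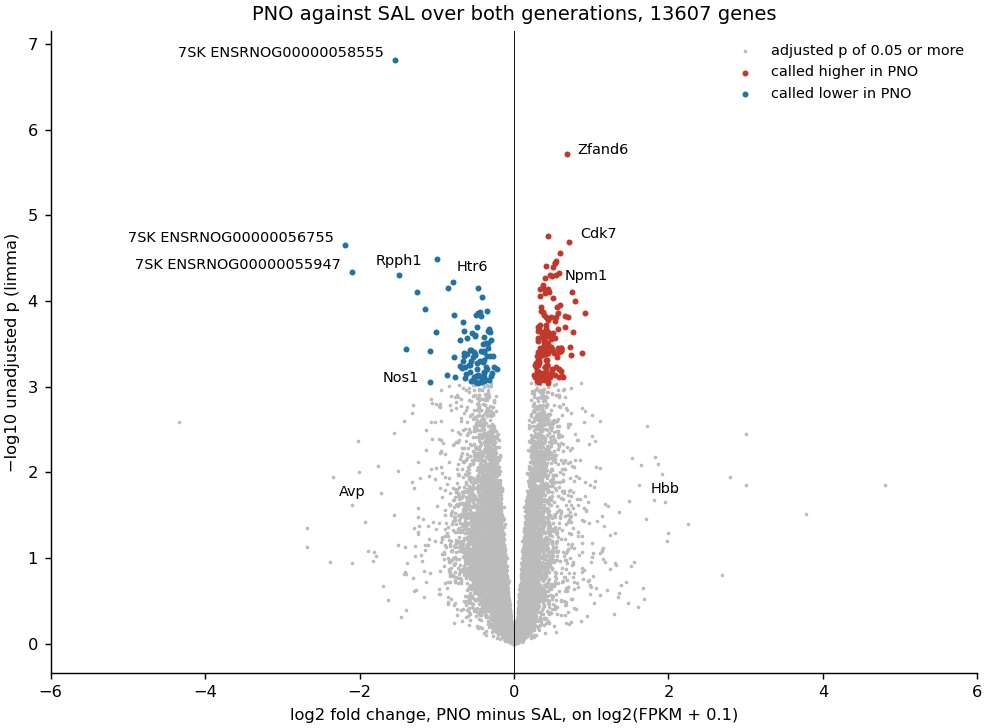
Each point is 1 of 13607 genes, with the log2 fold change (PNO minus SAL, 8 against 8 libraries) on the x axis and the −log10 unadjusted p from limma on the y axis. The 150 genes called higher (red) all changed by less than 1 on the log2 scale, while the 3 called 7SK copies and Rpph1 lie far to the left among the 95 called lower (blue).

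The size of the called set rested on single libraries. Of the 245 genes, 243 had an adjusted p of 0.035 or more, close under the threshold. Leaving out F1 PNO replicates 1, 2 or 4 left 3, 2 and 4 genes. Leaving out F2 PNO replicates 2 or 3 left 2 genes each. Leaving out F1 SAL replicates 2, 3 or 4 left 22, 6 and 2 genes, and without F2 SAL replicates 1, 2, 3 or 4 there were 2, 118, 2 and 2. In the other direction, 660 genes were called without F1 PNO replicate 3, 1017 without F2 PNO replicate 4 and 679 without F1 SAL replicate 1. Without F2 PNO replicate 1, the library that stood apart, 233 genes were called, of which 186 were among the 245. All 245 genes kept their direction and an unadjusted p under 0.05 in each of the 30 alternative fits that tested them. These genes had been picked by their low p, and the fits reused most or all of the same libraries. That outcome was thus nearly fixed in advance and is no separate support. A 7SK copy and Zfand6 were the 2 genes called whichever library was left out.

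**Figure D2:**
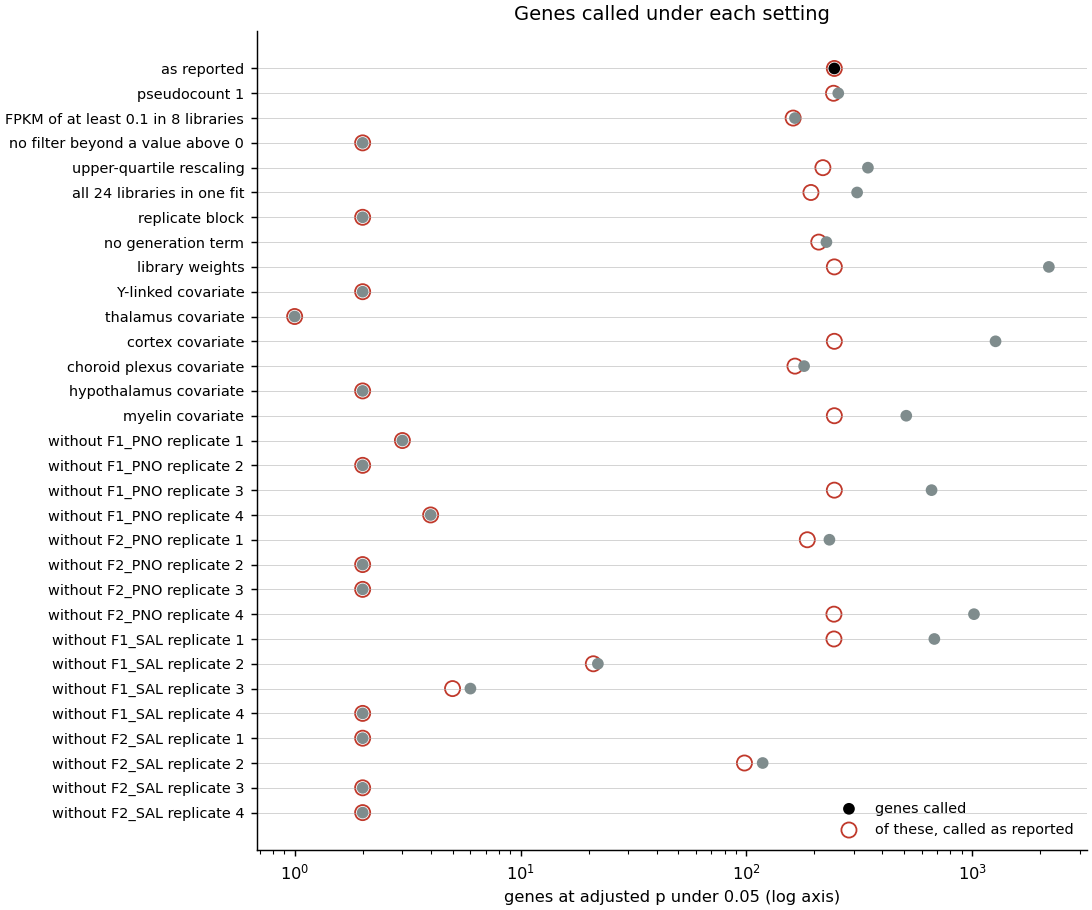
Grey points give the number of genes with adjusted p under 0.05 in each fit (x axis, log scale), the black point the fit as reported, and open circles the number among them that belong to the 245. The count ranges from 1 with the thalamus list as a covariate to 2182 with library weights.

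The lowest p of the comparison belonged to a small nuclear RNA. 7SK RNA holds the elongation factor P-TEFb in an inactive complex and so restrains transcription by RNA polymerase II. The files list 159 genes under its family name, 7 of which passed the filter, and how reads were divided among such copies is uncertain. The copy ENSRNOG00000058555 had 10.59, 18.49 and 33.45 FPKM in SAL (lowest, median, highest) and 3.94, 6.355 and 10.07 in PNO. All 8 PNO libraries lay below all 8 SAL libraries. The mean fell from 20.2 ± 7.42 to 6.72 ± 1.95 FPKM (SD, n = 8 each), a log2 fold change of -1.54 ± 0.18 (SE) with an adjusted p of 0.0021 from limma. An exact permutation of the labels within each generation gave p = 0.000408 (two-sided), the smallest that the 4900 arrangements allow. Its adjusted p stayed between 0.000332 and 0.0311 over the 30 alternatives.

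All 7 tested copies had negative fold changes (median -0.86), and 6 of 7 without F2 PNO replicate 1 (median -0.41). ENSRNOG00000055947 had 1.82, 5.23 and 17.3 FPKM in SAL and 0.4, 1.46 and 2.68 in PNO, a log2 fold change of -2.10 ± 0.38 (limma, adjusted p = 0.0369). ENSRNOG00000056755 had 0.7, 3 and 11.31 FPKM in SAL and 0.09, 0.52 and 1.25 in PNO, or -2.19 ± 0.37 (limma, adjusted p = 0.0369). It reached an FPKM of 1 in 7 SAL libraries and in 1 PNO library, so it passed the filter mostly through the group in which it was high. The groups overlapped for both copies, with 5 PNO libraries below every SAL library in each. The 4 remaining tested copies were not called, and their log2 fold changes ran from -0.86 to -0.08. Of the 7 copies, 3 were thus called lower, beside 0.698% of all genes, whose median fold change was -0.07. The 7SK family was picked after its values were seen.

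Other small structured RNAs were examined beside 7SK. Rpph1, by its symbol the RNA component of the tRNA-processing enzyme ribonuclease P and by its RefSeq type the related RNA of RNase MRP, had 10.97, 22.73 and 36.2 FPKM in SAL and 3.52, 7.185 and 12.55 in PNO. Of the 8 PNO libraries, 7 lay below every SAL library, and the log2 fold change was -1.49 ± 0.27 (limma, adjusted p = 0.0369; exact permutation p = 0.00163, two-sided). Rn7sl1, the RNA of the signal recognition particle that guides nascent proteins to the endoplasmic reticulum, had 43.85, 205.2 and 650.4 FPKM in SAL and 53.24, 70.12 and 94.62 in PNO. The SAL values spread widely, the groups overlapped, and its fold change of -1.31 ± 0.35 was not called (limma, adjusted p = 0.0593). All 6 tested signal recognition particle copies had negative fold changes, with a median of -1.41 beside -0.07 for all genes. An unadjusted p under 0.05 was found for 4, where 13.1% of all genes were lower at that p. The mean log2(FPKM + 0.1) of this family stood highest in F2 SAL replicates 3 and 4, at 5.61 and 4.32. In the other SAL libraries it ran from 1.01 to 2.47 and overlapped PNO, at 0.33 to 2.33. The copies of the spliceosomal U1, U2, U4 and U5 RNAs were divided, 4 positive and 4 negative among 8 tested with a median of -0.07. Of 4 tested U6 copies 1 was higher and 1 lower at an unadjusted p under 0.05, and their median was -0.66.

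**Figure D3:**
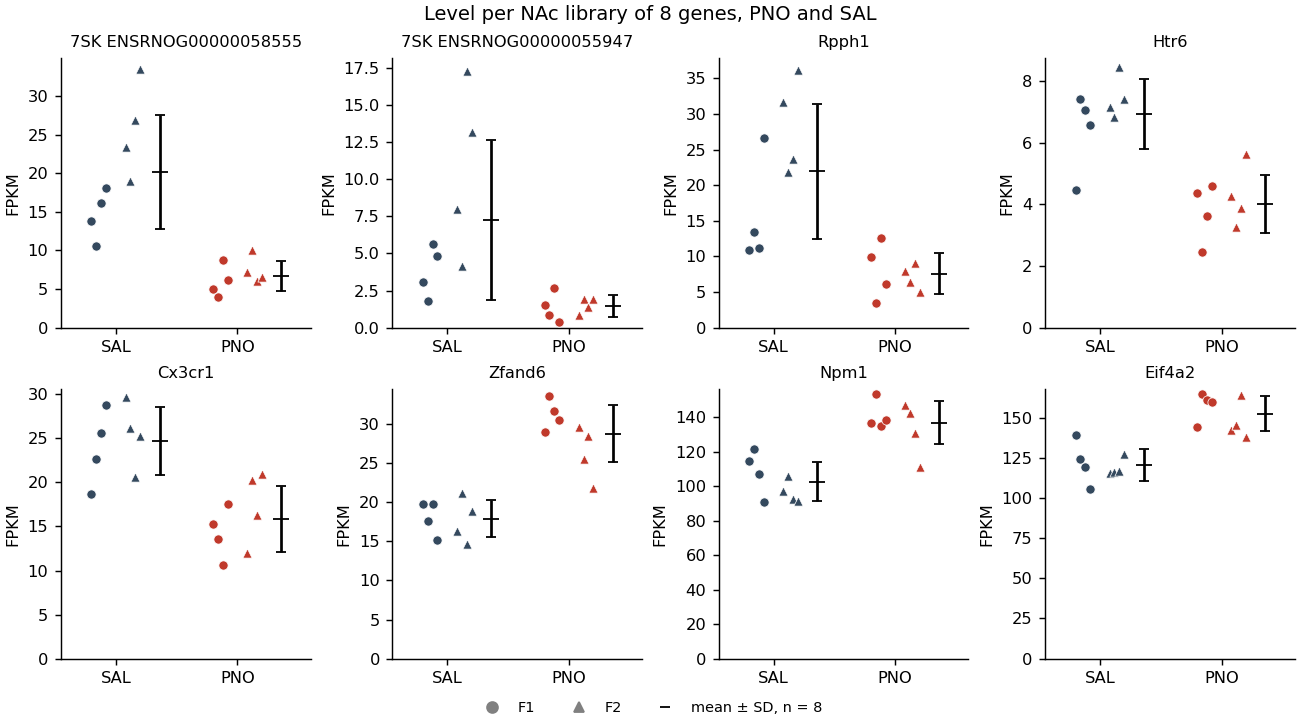
FPKM (y axis, from 0) of 8 genes in each of the 16 libraries, SAL in dark blue and PNO in red, F1 as circles and F2 as triangles, with the mean and SD of 8 libraries beside them. All PNO points of the 7SK copy ENSRNOG00000058555 lie below, and all those of Zfand6 above, the SAL points, while the other 6 panels overlap in a few libraries.

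Among the genes higher in PNO, Zfand6 had the lowest p. It encodes a zinc finger protein of the A20/AN1 family that binds ubiquitin. Its level was 14.7, 18.23 and 21.22 FPKM in SAL and 21.79, 29.34 and 33.58 in PNO, with no overlap. The mean rose from 17.9 ± 2.37 to 28.8 ± 3.69 FPKM (SD, n = 8 each), a log2 fold change of 0.68 ± 0.09 (limma, adjusted p = 0.013; exact permutation p = 0.000408, two-sided). It missed the threshold with the replicate block, the thalamus list or the hypothalamus list in the model, and its adjusted p from limma ran from 0.000751 to 0.104 over all alternatives. For the other genes with a symbol that had the lowest p in each direction, the highest adjusted p over the alternatives lay between 0.0901 and 0.105, so that each lost its call in at least 1 of them.

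The genes that followed Zfand6 by p are given by their roles. Rbm8a, of the exon junction complex that marks spliced mRNA, had 28.43, 33.66 and 40.28 FPKM in SAL and 38.69, 46.03 and 50.11 in PNO, and rose by 0.44 ± 0.07 (limma, adjusted p = 0.0369). Cdk7, the kinase of transcription factor TFIIH, rose by 0.72 ± 0.12, from 3.08, 4.235 and 4.75 FPKM in SAL to 4.98, 6.92 and 7.8 in PNO without overlap. Dek, a chromatin protein, rose by 0.54 ± 0.10 and Sarnp, of the mRNA export complex, by 0.53 ± 0.09. Npm1, the nucleolar chaperone nucleophosmin, rose by 0.42 ± 0.07, from 90.95, 101.3 and 121.5 FPKM to 111, 137.6 and 153.3, and 7 of 8 PNO libraries lay above every SAL library. Mphosph10, of the nucleolar machinery that processes ribosomal RNA, rose by 0.53 ± 0.09. Pcna, the sliding clamp of DNA polymerase, rose by 0.59 ± 0.11, and Dpm1, which makes the mannose donor for protein glycosylation, by 0.60 ± 0.10 with all PNO libraries above all SAL libraries. Cetn2, a centrin of the centriole, Ift74, a cargo adaptor of ciliary transport, and Cfap36, a cilium-associated protein, rose by 0.55 ± 0.10, 0.50 ± 0.09 and 0.46 ± 0.08. Each of these had an adjusted p of 0.0369 from limma.

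Further genes of RNA handling and protein synthesis were picked after their values were seen, as were the annotation groups, and are given as a description. Over all genes 1.10% were called higher, and 10.1% were higher and 13.1% lower at an unadjusted p under 0.05. Eif4a2, a helicase that unwinds mRNA for translation, had 105.5, 118.3 and 139.6 FPKM in SAL and 138.4, 153 and 165.1 in PNO and rose by 0.34 ± 0.06. Eif2s2, Eif3m and Eif5b, which also act in translation initiation, rose by 0.33 ± 0.07, 0.38 ± 0.08 and 0.41 ± 0.09. These 4 were the called ones among 53 tested genes with the annotation translation initiation factor activity, whose median was 0.05 beside the -0.07 of all genes. Of the 53, 15 were higher and 1 lower at an unadjusted p under 0.05. Ssb, which binds the ends of new RNA polymerase III transcripts, rose by 0.57 ± 0.11, the box C/D protein Nop58 by 0.43 ± 0.10, Hnrnpc by 0.44 ± 0.09, Srsf1 by 0.37 ± 0.08 and Upf3b, of nonsense-mediated decay, by 0.40 ± 0.09. Of 80 tested genes of the spliceosomal complex, 2 were called higher and none lower, with 15 and 8 at an unadjusted p under 0.05. Of 54 tested proteasome genes 2 were called, Psma1 (0.35 ± 0.08) and Psmc6 (0.36 ± 0.08), with 33 positive and 21 negative fold changes. At an unadjusted p under 0.05, 13 of the 54 were higher and 4 lower. Of 25 tested COP9 signalosome genes 2 were called, Cops2 (0.38 ± 0.08) and Cops3 (0.33 ± 0.08), while 14 had negative fold changes and 3 were higher and 3 lower at an unadjusted p under 0.05. In intraciliary transport particle B 3 of 19 tested genes were called, all higher, with a median of 0.08 over the 19. At an unadjusted p under 0.05, 8 of the 19 were higher and 1 lower. The chromatin genes Smarca5 and Eed, a subunit of Polycomb complex PRC2, rose by 0.40 ± 0.09 and 0.48 ± 0.10. The genes named here had adjusted p between 0.0369 and 0.044 from limma.

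RefSeq promoter windows were matched by symbol for 110 of the 150 genes called higher and 58 of the 95 called lower, fewer than 80% in each, so the GC content and motif content of the called sets were not compared. Zfand6, Npm1 and Htr6 are shown because they led or typified the genes in each direction, with the 250 bases before the annotated start in assembly GRCr8. Capitals mark CCAAT (the NF-Y box), TATAA and the NRF1 core (GCGCA, 1 base of any kind, then GCGC) on either strand. These letters occur in 34% (CCAAT), 24% (TATAA) and 3.75% (NRF1 core) of the 33469 windows of the table, and overlapping matches were counted apart. Zfand6 (chr1:148061045-148061294, minus strand) held 2 CCAAT, Npm1 (chr10:18255742-18255991, minus strand) held 2 NRF1 cores, and Htr6 (chr5:156595148-156595397, minus strand) held none of the motifs. A match describes the letters and is no evidence of binding.
Zfand6: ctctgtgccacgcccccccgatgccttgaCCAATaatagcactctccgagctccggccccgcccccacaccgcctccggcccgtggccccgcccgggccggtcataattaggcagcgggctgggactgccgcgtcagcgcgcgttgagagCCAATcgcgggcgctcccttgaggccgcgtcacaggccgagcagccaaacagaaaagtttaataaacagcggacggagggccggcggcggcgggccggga
Npm1: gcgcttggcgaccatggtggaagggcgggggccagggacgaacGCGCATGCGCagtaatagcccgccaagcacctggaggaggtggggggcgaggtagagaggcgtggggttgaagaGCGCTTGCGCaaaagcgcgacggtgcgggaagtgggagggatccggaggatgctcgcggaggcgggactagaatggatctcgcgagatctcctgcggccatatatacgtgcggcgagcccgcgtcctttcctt
Htr6: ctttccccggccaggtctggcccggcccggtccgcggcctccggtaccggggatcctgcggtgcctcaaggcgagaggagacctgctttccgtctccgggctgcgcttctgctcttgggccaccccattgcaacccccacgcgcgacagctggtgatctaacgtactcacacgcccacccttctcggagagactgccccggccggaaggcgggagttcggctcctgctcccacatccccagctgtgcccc

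The protein-coding genes lower in PNO were led by a receptor. Htr6, the serotonin receptor 6, is enriched in striatal neurons and raises cyclic AMP. Its level was 4.48, 7.12 and 8.45 FPKM in SAL and 2.45, 4.075 and 5.64 in PNO, and 6 of 8 PNO libraries lay below every SAL library. The mean fell from 6.93 ± 1.14 to 4.01 ± 0.95 FPKM (SD, n = 8 each), a log2 fold change of -0.79 ± 0.15 (limma, adjusted p = 0.0369; exact permutation p = 0.000816, two-sided). Abca2, a lipid transporter of the ABC family, had 40.91, 43.25 and 47.83 FPKM in SAL and 28.08, 33.84 and 39.64 in PNO without overlap, and its fold change was -0.35 ± 0.07 (limma, adjusted p = 0.0392). Rhbdd2, which has a rhomboid domain, and Sppl2b, an intramembrane protease, had fold changes of -0.47 ± 0.09 and -0.47 ± 0.10. Tmem214 (-0.44 ± 0.09) and Tmem158 (-0.77 ± 0.16) are transmembrane proteins, and Dennd6b (-0.49 ± 0.10) is of the DENN family that activates Rab GTPases. Wbp2, a transcriptional coactivator, and Ccdc71 had fold changes of -0.41 ± 0.08 and -0.48 ± 0.10. Their adjusted p from limma lay between 0.0369 and 0.0394.

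Several called genes were from fixed lists of the NAc's receptors and cell types. Of 38 lists, 37 had a tested member, and 7 of the 596 list genes tested were called (1.17%, beside 1.80% of all genes), every one of them lower in PNO. Among the 16 AMPA, NMDA and kainate receptor subunits, Grin1, the obligatory NMDA subunit, had 111.7, 124.3 and 140 FPKM in SAL and 86.57, 102.3 and 114.7 in PNO, a fold change of -0.31 ± 0.07. Grik5, a kainate subunit, had 61.53, 73.59 and 82.69 in SAL and 37.94, 52.95 and 68.9 in PNO, or -0.51 ± 0.12. Of 8 PNO libraries, 7 lay below every SAL library for Grin1 and 6 for Grik5 (limma, adjusted p = 0.0394 for both). The list's median was -0.20, or -0.12 without F2 SAL replicate 3. Slc32a1, the vesicular transporter that loads GABA, was the called gene among 22 of synaptic vesicle release: 74.14, 126.6 and 167.3 FPKM in SAL and 59.37, 88.29 and 102.7 in PNO, or -0.56 ± 0.13 (limma, adjusted p = 0.0417).

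Nos1, the nitric oxide synthase of a class of striatal interneurons, had 3.35, 5.675 and 8.08 FPKM in SAL and 0.7, 3.15 and 3.76 in PNO. Its fold change was -1.09 ± 0.27 (limma, adjusted p = 0.0494), and -0.85 without F2 PNO replicate 1. It was the called gene among 16 tested interneuron markers, of which 14 had negative fold changes (median -0.23, beside -0.07 for all genes). The 28 tested markers of striatal projection neurons held no called gene and had a median of -0.29, or -0.17 without F1 SAL replicate 3. Of these 28, 7 were lower and none higher at an unadjusted p under 0.05, beside 13.1% of all genes lower. In that list Gnal, the G protein of dopamine and adenosine receptors, had -0.38 ± 0.11 and Adcy5, the main striatal adenylyl cyclase, -0.45 ± 0.13 (limma, adjusted p = 0.0662 and 0.0673). In bulk tissue, fewer cells of a type and less RNA per cell cannot be told apart.

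Cx3cr1, the microglial receptor for the neuronal chemokine fractalkine, had 18.69, 25.47 and 29.67 FPKM in SAL and 10.68, 15.83 and 20.96 in PNO. Its fold change was -0.66 ± 0.14 (limma, adjusted p = 0.0394), with 6 of 8 PNO libraries below every SAL library. Among 13 tested microglial markers, 12 had negative fold changes, with a median of -0.26 beside -0.07 for all genes. At an unadjusted p under 0.05, 5 of them were lower, as were 13.1% of all genes. Cspg4, the NG2 proteoglycan of oligodendrocyte precursors, had 5.66, 8.44 and 10.34 FPKM in SAL and 4.73, 5.72 and 7.21 in PNO, or -0.50 ± 0.12 (limma, adjusted p = 0.0494, and 0.0629 without F2 PNO replicate 1). The median of the 7 precursor markers was -0.45, or -0.22 without F2 PNO replicate 1, and 3 were lower at an unadjusted p under 0.05. The 22 markers of myelin and oligodendrocytes centred on 0.03 and the 15 of astrocytes on -0.06, with none called. Magel2, an imprinted gene expressed from the paternal allele and active in the hypothalamus, had 5.02, 6.415 and 9.61 FPKM in SAL and 1.96, 4.24 and 5 in PNO without overlap, or -0.76 ± 0.18 (limma, adjusted p = 0.047). The other 16 tested imprinted genes were not called.

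**Figure D4:**
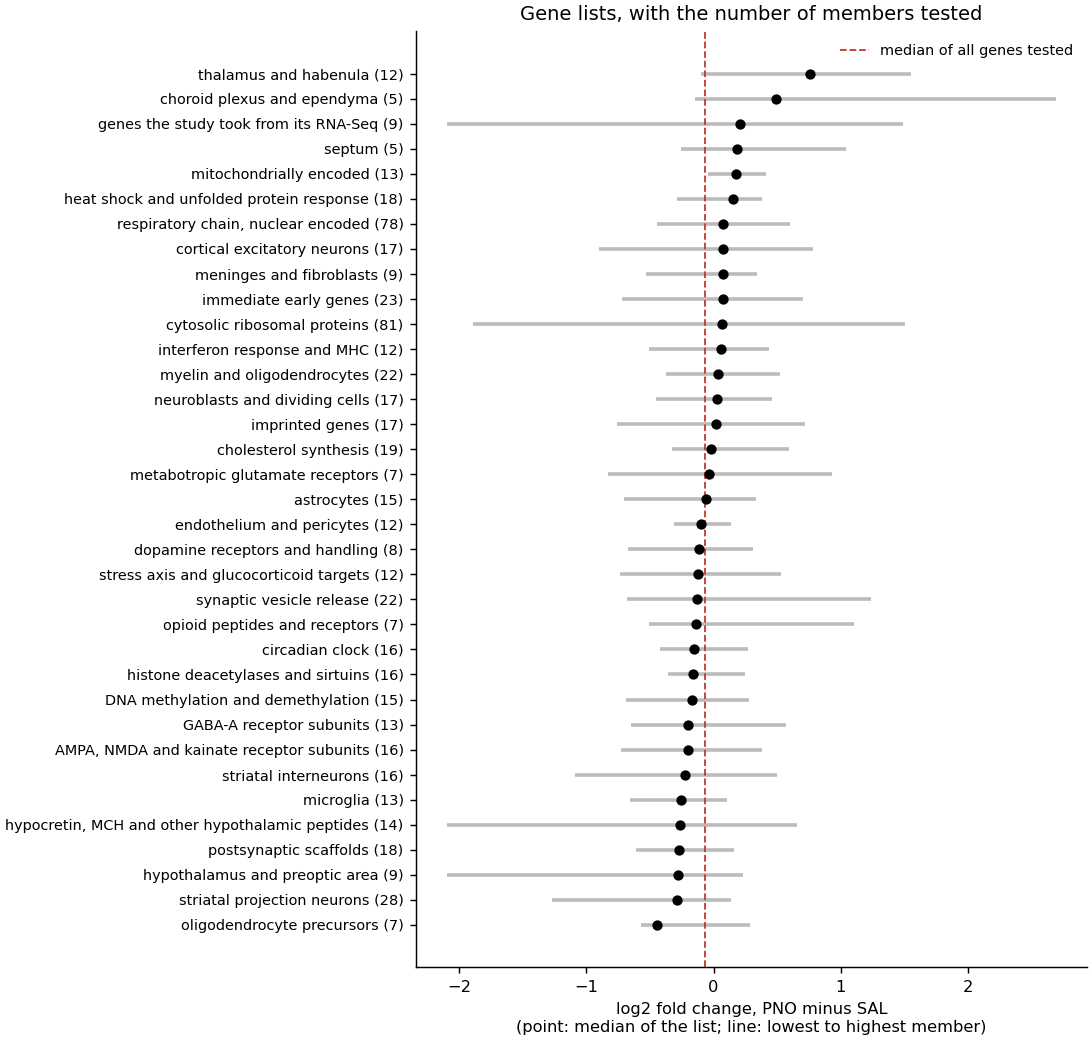
For each gene list with 5 or more tested members (number in brackets), the point is the median log2 fold change (x axis, PNO minus SAL) and the line runs from its lowest to its highest member. The dashed line is the median of all genes tested at -0.07; oligodendrocyte precursors (-0.45) and striatal projection neurons (-0.29) lie left of it and thalamus and habenula (0.76) to the right.

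Ion channel and guidance genes were further members of the lower set, again picked after their values were seen. All 27 tested genes annotated to voltage-gated calcium channel activity had a negative fold change, with a median of -0.24, which became 22 of 27 and -0.15 without F2 PNO replicate 1. The median of all genes was itself negative, at -0.07, and -0.021 without that library. The highest of the 27 lay at -0.00036, so the sign alone says little for some of them. Of the 27, 2 were called lower (0.698% of all genes were) and 8 had an unadjusted p under 0.05 (13.1% of all genes were lower at that p): the auxiliary subunits Cacnb1 (-0.39 ± 0.08) and Cacna2d2 (-0.61 ± 0.14; limma, adjusted p = 0.0394 for both). Cacna2d2 had 29.9, 47.41 and 53.08 FPKM in SAL and 19.73, 29.23 and 36.34 in PNO, with 6 of 8 PNO libraries below every SAL library. Cacna1h, a T-type calcium channel that is not among the 27 annotated genes, was also called, with a fold change of -0.67 ± 0.16. The sodium-activated potassium channel Kcnt1 had one of -0.52 ± 0.12 and Kcnip3, a calcium sensor of potassium channels, one of -0.58 ± 0.14. The axon guidance cue Ntn1 had 7.67, 10.12 and 11.91 FPKM in SAL and 2.24, 6.015 and 7.7 in PNO, or -0.87 ± 0.21, and the ephrin Efnb3 had -0.47 ± 0.11. Sez6 and Nxph4, proteins of the synapse, and the striatal transcription factor Zfp503 had -0.38 ± 0.09, -0.67 ± 0.15 and -0.65 ± 0.14. These 8 genes had adjusted p between 0.0394 and 0.0488 from limma.

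Genes of opioid and dopamine signalling were not called. Of 7 tested opioid peptides and receptors, 6 had negative fold changes (median -0.14, from -0.23 to -0.082 when 1 library was left out). The remaining 1 had a positive fold change of 1.11, the largest in size. The mean log2(FPKM + 0.1) of the list was 4.12 in F2 PNO replicate 4, where the PNO median was 2.64. The lowest p was that of Oprl1, the nociceptin receptor, at -0.28 ± 0.11 (limma, adjusted p = 0.158). Oprk1, the kappa receptor, had -0.51 ± 0.26 and Pdyn, the dynorphin precursor, -0.33 ± 0.24. Oprk1 moved to -0.32 without F2 PNO replicate 1 and Pdyn to -0.21 without F1 SAL replicate 3. Of 8 tested genes of dopamine reception and handling, Maob, which degrades dopamine, had 0.31 ± 0.08 (limma, adjusted p = 0.0599) and Ddc, which makes it, -0.67 ± 0.21 (limma, adjusted p = 0.0878).

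The lists of chaperones, respiration, ribosomes, cholesterol synthesis and immediate early genes held no called gene. The 18 tested genes of heat shock and the unfolded protein response had a median of 0.15, with 6 higher and none lower at an unadjusted p under 0.05. Of all genes tested, 10.1% were higher and 13.1% lower at that p. Hsp90aa1, a cytosolic chaperone, had 0.36 ± 0.10 and Hspa5, its counterpart of the endoplasmic reticulum, 0.38 ± 0.11 (limma, adjusted p = 0.0614 and 0.0664). Of 78 nuclear-encoded genes of the respiratory chain, 15 were higher and 4 lower at an unadjusted p under 0.05 (median 0.08), and of 81 cytosolic ribosomal protein genes 6 and 3 (median 0.07). In cholesterol synthesis 4 were higher and 3 lower of 19. Dusp1 (0.57 ± 0.17) and Egr3 (-0.72 ± 0.28) had the lowest p among 23 immediate early genes, with opposite signs, and Egr3 moved to -0.47 without F2 PNO replicate 1. The lists of epigenetic regulators held none either and had medians of -0.17 over 15 genes of DNA methylation and demethylation and -0.16 over 16 histone deacetylases and sirtuins, which became -0.035 and -0.012 without F2 PNO replicate 1.

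A further list held genes that the study examined by RT-PCR, some picked from this RNA-Seq and some as parts of the hypocretin system it then followed, so their values here are not independent evidence. Of its 14 entries 9 passed the filter and none was called. Avp, the vasopressin precursor, had 2.8, 9.9 and 199.2 FPKM in SAL and 1.09, 2.27 and 47.59 in PNO, with a fold change of -2.10 ± 0.84 (limma, adjusted p = 0.157). Oxt, the oxytocin precursor, had -1.42 ± 0.93, and 0.16 with the hypothalamus list in the model. Hcrtr1, the orexin 1 receptor, had -0.71 ± 0.28, Tcf7l2, a Wnt effector abundant in the thalamus, 1.15 ± 0.67, Nptx2, a synaptic pentraxin, 0.21 ± 0.28 and Hcrt 0.23 ± 0.43. Nptx2 turned to -0.073 with the thalamus list in the model and Hcrt to -0.00016 without F1 SAL replicate 2. The melanin-concentrating hormone precursor Pmch reached an FPKM of 1 in 3 of the 16 libraries, Otp and Agrp in 5, Aqp1 in 3 and Cdh1 in 2, and these were not tested.

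At an unadjusted p under 0.05 and group means that differed 1.5-fold or more, 380 genes passed (2.79%), 167 higher (1.23%) and 213 lower (1.57%). At 2-fold or more 69 passed (0.507%), 28 higher and 41 lower, and this split turned round to 35 higher and 30 lower after upper-quartile rescaling and to 38 and 36 without F2 SAL replicate 3. Of the 69, 11 were also called, all lower. The highest ratios were those of haemoglobin genes: Hbb had 0, 0.805 and 5.09 FPKM in SAL and 1.37, 2.82 and 41.23 in PNO, a 4.99-fold ratio of means, LOC100134871, which the files describe as a haemoglobin beta subunit, 4.01-fold and Hba-a2 3.97-fold. Each overlapped between groups, with 2 PNO libraries above every SAL library, F1 PNO replicate 3 (41.23 FPKM of Hbb) and F2 PNO replicate 2 (10.61 FPKM). Without F1 PNO replicate 3 the ratios were 2.20 for Hbb, 2.40 for LOC100134871 and 2.03 for Hba-a2. The lowest ratios were those of a signal recognition particle copy (0.134), the uncharacterised AABR07037925.1 (0.151) and 7SK copy ENSRNOG00000056755 (0.156). Without F2 SAL replicate 3 the first of these became 0.418 and AABR07037925.1 became 0.371, and AABR07037925.1 became 0.0809 without F1 PNO replicate 1, while no single library moved the ratio of the 7SK copy by over 1.5 times.

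Markers of blood, of neighbouring regions and of sex were set beside the comparison. The list level is the mean log2(FPKM + 0.1) of its members in a library. Of 12 tested markers of thalamus and habenula, 11 had positive fold changes (median 0.76), and the list level was 1.34, 2.52 and 4.07 in SAL and 2.03, 3.40 and 4.45 in PNO. At an unadjusted p under 0.05, 1 of the 12 was higher and none lower. The 3 tested blood genes were all higher at an unadjusted p under 0.05, as were 10.1% of all genes. The blood list level was -0.33, 0.44 and 2.84 in SAL and 0.68, 1.45 and 4.24 in PNO. The red cell genes Alas2 and Slc4a1 did not exceed 0.33 and 0.17 FPKM in any of the 16 libraries. Markers of choroid plexus and ependyma reached 3.77 in SAL and 4.40 in PNO, with both medians at 0.09. Of 9 tested hypothalamic markers 8 had negative fold changes (median -0.28). The Y-linked gene Kdm5d was at 0.5 FPKM or more in 2 F1 PNO, 1 F2 PNO, 4 F1 SAL and 0 F2 SAL libraries. Sex was thus unequal between the groups within each generation. The highest Kdm5d value under that level was 0.49 FPKM in F2 SAL replicate 3. The lowest over it was 4.96 FPKM in F1 PNO replicate 1, so the libraries were well separated. With the list level as a covariate, 1 gene was called for thalamus, 2 for the Y-linked genes, 2 for the hypothalamus, 180 for choroid plexus, 510 for myelin and 1267 for cortical excitatory neurons, so the size of the called set changed by over 1.5 times with 5 of these 6. The 7SK copy ENSRNOG00000058555 was called in each. Beyond these fits, the part of these markers in the result was not tested.

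**Figure D5:**
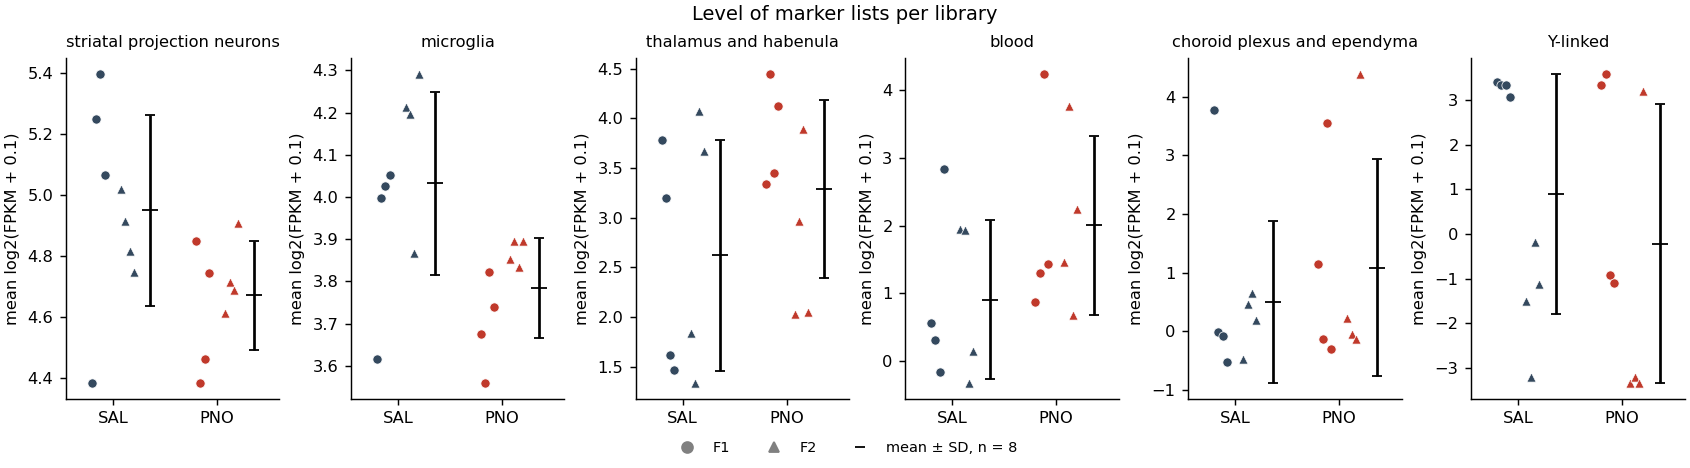
Mean log2(FPKM + 0.1) of the members of 6 marker lists (y axes, each with its own range) in the 16 libraries, F1 as circles and F2 as triangles, with the mean and SD of 8 libraries beside them. Every list overlaps between SAL and PNO; the microglial level lies between 3.56 and 3.90 in PNO and between 3.62 and 4.29 in SAL.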

How the data were processed

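Total RNA from the NAc of P14 pups was sequenced, and the authors deposited 1 table per library with an FPKM value for each of 23950 genes. The submitters' processing notes name HISAT2, SAMtools, StringTie and edgeR; their versions, the genome build and the library type are not given in the sources used here. Read counts were not used here, so no count model was fitted and the depth behind a value is unknown. Groups came from the labels. log2(FPKM + 0.1) of genes with FPKM of at least 1 in 8 of 16 libraries was fitted with limma 3.58.1 in R 4.3.3 (treatment and generation, empirical Bayes with trend), with Benjamini-Hochberg adjustment over 13607 genes. The interaction of treatment and generation was tested in a second fit. For the genes named, treatment labels were exchanged within each generation in all possible ways (two-sided exact permutation test). The method was tested on simulated data. The genes named are the 12 with a given symbol and the lowest p in each direction among those called, up to 4 called members of each list (2 where none was called), genes the study examined by RT-PCR and the 3 with the highest and lowest ratio of means; the others are marked as picked after their values were seen. A gene that the rule chose is not reported here. The members and lists were chosen with earlier results of these data known. GO annotations are those of the files, and promoters are from RefSeq (GRCr8). The alternatives were another pseudocount, other filters, upper-quartile rescaling, all 24 libraries, a replicate block, no generation term, library weights, marker lists as covariates, other thresholds and leaving out each library. Figures were drawn with matplotlib in Python.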

Additional observations from a re-analysis of the deposited data

Results flagged for a closer look

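In 53 measures (the genes named by rule with their values and the marker lists), each group of 4 libraries was searched for a library whose gap to its nearest neighbour took up nearly all of the group's range. Of 208 groups 16 were marked, where chance marks about 1 in 20, or 10.4. Values are that gap as a share of the range, on the log2(FPKM + 0.1) scale.

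Among the genes, F1 PNO replicate 3 was far from the other F1 PNO libraries for Tmem214 (low, 0.98), for both Hba-a2 entries (high, 0.879 and 0.893), and for the blood (high, 0.833) and septum (high, 0.869) lists. F1 PNO replicate 2 was high for Dpm1 (0.893). F1 SAL replicate 4 was low for Cdk7 (0.85) and F2 SAL replicate 4 low for Sppl2b (0.919).

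Among the other marker lists, F2 PNO replicate 1 was low for astrocytes (0.977). F2 PNO replicate 4 was high for choroid plexus and ependyma (0.922) and for the Y-linked genes (0.981). F1 SAL replicate 1 was high for choroid plexus and ependyma (0.882) and low for microglia (0.874). F2 SAL replicate 2 was low for striatal interneurons (0.841), F2 SAL replicate 3 high for endothelium and pericytes (0.831), and F1 SAL replicate 4 low for the Y-linked genes (0.832).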

How the results depend on the processing

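The 245 calls became 255 with a pseudocount of 1, 164 with a filter at 0.1 FPKM, 345 after upper-quartile rescaling, 309 with all 24 libraries, 226 without the generation term and 180 with the choroid plexus list as a covariate. They became 2 with no filter, 2182 with library weights, 2 with the Y-linked, 1 with the thalamus, 1267 with the cortex, 2 with the hypothalamus and 510 with the myelin list, and 1120 at an adjusted p under 0.1; without 1 library they ranged from 2 to 1017. The cause of these shifts was not tested. With a replicate block, which takes same-numbered libraries of a generation as pairs, 2 genes were called, both lower and both among the 245; the deviations of same-numbered libraries correlated between -0.147 and 0.131, so the numbers were not taken as pairs. The 69 genes at 2-fold and an unadjusted p under 0.05 became 228 with the filter at 0.1 FPKM, 470 with no filter, 380 at 1.5-fold and 51 to 101 without 1 library. The difference between generations gave 0 calls by limma in every fit, with 363 to 983 genes at an unadjusted p under 0.05. Over all genes named and all fits, 2805 values kept their direction and side of the threshold, 1011 lost the call, 102 gained it and 4 reversed: Eif2s3y (0.049 with the Y-linked list), Nptx2 (-0.073 with thalamus), Oxt (0.16 with hypothalamus) and Hcrt, which ranged from -0.00016 (without F1 SAL replicate 2) to 0.43 without 1 library. None of these 4 was called. Depth is unknown, so the counting error of low values such as the 7SK copies could not be given.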
